A study of Mus musculus with 4 samples.

Results

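The connecting tubule cells described here were picked from single-cell RNA libraries of sorted mouse kidney cells by their own counts of Calb1, the gene of the calcium-binding protein calbindin. A barcode was read as a cell when it held at least 500 unique molecular identifiers (UMIs, each standing for 1 captured transcript), at least 300 genes and at most 50% of its UMIs from mitochondrial genes. A cell was then taken when Calb1 reached 10 per 10000 UMIs and at least 3 UMIs, Slc12a3 (the thiazide-sensitive sodium chloride cotransporter of the distal convoluted tubule) and Slc12a1 (its counterpart in the thick ascending limb) were each below 5 per 10000, and the sum of the leukocyte genes Tyrobp, Fcer1g and Ctss was below 20 per 10000. The limits were met by 636 of 24410 cells. Of these, 554 came from the untreated library, 47 from day 2, 1 from day 7 and 34 from day 30. The rule asks for 50 cells in a library before it is compared, and only the untreated library had them, so values after injury stand beside the untreated ones and no difference between libraries was called.

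All 4 libraries came from BAC-CluGFP mice, a transgenic line in which GFP marks kidney cells that express Clu, the gene of the secreted chaperone clusterin, and each held GFP-positive cells taken by flow sorting. A first library was made from untreated mice and 1 each at 2, 7 and 30 days after 35 min of ischemia-reperfusion injury (IRI), in which blood flow to the kidney is stopped and then restored. The labels state no strain, sex or age, no count of animals behind a library and no sham-operated control. With 1 library per group there is no replicate check: intervals below are 95% counting intervals, which cover the sampling of UMIs or cells alone, and no p-value is given.

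The connecting tubule joins the distal convoluted tubule to the collecting duct. Its cells take up calcium from the urine through the channel TRPV5, carry it across the cytosol bound to the calbindins encoded by Calb1 and S100g, and pass it to the blood through the sodium-calcium exchanger Slc8a1 and the calcium pumps Atp2b1 and Atp2b4, under the control of parathyroid hormone and vitamin D. The same segment responds to aldosterone through the epithelial sodium channel (Scnn1a, Scnn1b, Scnn1g) and is the main source of tissue kallikrein (Klk1) in the kidney. In the gene annotation of GRCm38, the build named mm10 in the submitters' notes, Calb1 lies on chromosome 4 from 15881264 to 15908064 on the plus strand. S100g lies on chromosome X from 162961992 to 162964599 on the minus strand, and Trpv5 on chromosome 6 from 41652173 to 41680769 on the minus strand. Slc8a1 lies on chromosome 17 from 81373105 to 81738377 on the minus strand, and Klk1 on chromosome 7 from 44225360 to 44229618 on the plus strand. Clu lies on chromosome 14 from 65968483 to 65981547 on the plus strand. All 6 are protein-coding genes.

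The libraries held 1930 to 9286 barcodes and 49397016 to 98818914 UMIs. The lowest UMI total of any barcode was 2335 for untreated cells, 3881 on day 2, 18362 on day 7 and 5976 on day 30, so shallow cells could enter the untreated library and not the others. The 554 untreated connecting tubule cells had a median of 7224 UMIs (lowest 2340, highest 58188), against 12634 in the 47 day 2 cells, 11226 in the 34 day 30 cells and 19221 in the day 7 cell. Mitochondrial UMIs made up a median of 15.19% in the untreated cells, 11.03% at day 2 and 11.81% at day 30. Across libraries 74 barcode sequences occurred more than once, none of them in connecting tubule cells of both libraries. Scrublet, a doublet caller, put 40 of the 554, none of the 47, not the day 7 cell and 2 of the 34 above its threshold, but in the untreated library it had not worked (1 call in 9286 barcodes) and a threshold averaged from days 2 and 30 was used there.

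As a share of all cells, connecting tubule cells were 8.463% (exact Clopper-Pearson interval 7.800 to 9.164) of 6546 in the untreated library, 0.5229% (0.3845 to 0.6948) of 8988 at day 2, 0.05181% (0.001312 to 0.2883) of 1930 at day 7 and 0.4895% (0.3392 to 0.6833) of 6946 at day 30. The sort for GFP, the depth floors named above and the leukocytes that filled the injured libraries (6133 of 8988 cells at day 2) all enter these shares, and their part in them was not tested. A cell with less Calb1 is also left out, so fewer cells of this type and less Calb1 in each cannot be told apart. With Calb1 required at only 5 per 10000 the shares were 10.4%, 1.66%, 0.570% and 0.720%.

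Calb1, which chose the cells, is given as a description. In the untreated cells it ran from 10.06 to 283.9 per 10000 UMIs with a median of 30.08. At day 2 it ran from 10.05 to 26.02 with a median of 13.18, and at day 30 from 10.32 to 92.30 with a median of 27.99. The day 7 cell stood at 13.53. Most day 2 cells were thus close to the limit, whereas the untreated and day 30 cells spread far above it. The nearest cells left out had 9.906 (untreated), 9.746 (day 2), 9.296 (day 7) and 7.367 (day 30). Among cells that met every other limit, 246 untreated, 252 day 2, 37 day 7 and 35 day 30 cells with at least 3 Calb1 UMIs fell below 10 per 10000. The Slc12a3 limit removed 118 further Calb1 cells from the untreated library and 19 from day 30, and none from day 2.

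**Figure D1:**
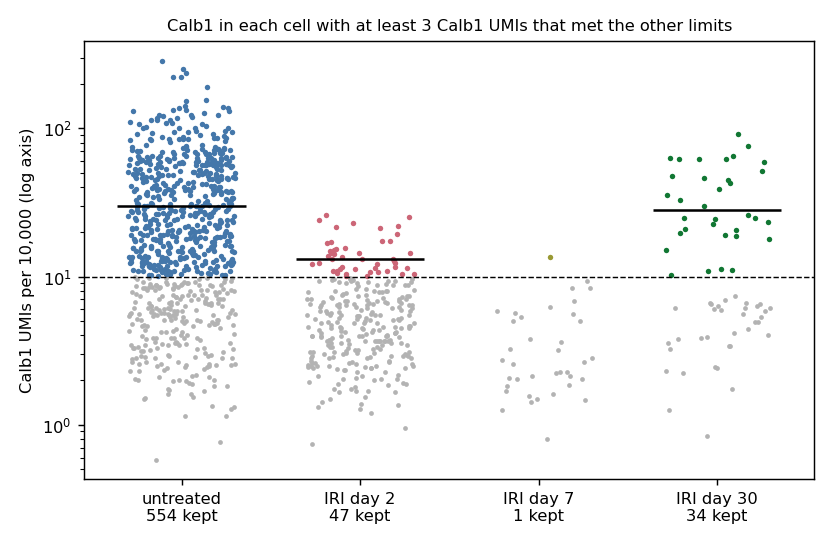
Calb1 UMIs per 10000 (log axis) in each cell with at least 3 Calb1 UMIs that met the other limits, by library, with the limit of 10 drawn in. Untreated cells reach 283.9 and day 30 cells 92.30, while the highest day 2 cell stands at 26.02.

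The label was checked on genes that the rule did not use. In the untreated cells S100g, the second calcium buffer, had a median of 158 per 10000 (lowest 0, highest 713) and at least 5 per 10000 in 506 of 554 cells. Trpv5 was sparse, with a UMI in 244 of 554 cells. Leukocyte-gene cells of the same library (77 cells with the 3 leukocyte genes at 20 per 10000 or more) served as a measure of free RNA, since they should lack tubule genes. After each cell was thinned to 2000 UMIs, 93.3% of connecting tubule cells and 54.5% of leukocyte-gene cells held an S100g UMI. For Trpv5 the shares were 16.6% and 0% (0 of 77, upper limit of the interval 4.68%), for Slc8a1 47.8% and 3.90%, for Hsd11b2 83.6% and 9.09%, and for Klk1 87.4% and 71.4%. Unthinned, the connecting tubule shares were 96.9%, 44.0%, 75.6%, 89.0% and 97.1% in the same order, at median depths of 7224 and 3911 UMIs. A lone S100g or Klk1 UMI was thus common in cells that should lack these genes, whereas the summed levels lay far apart: S100g stood at 19726 against 392.6 CPM (UMIs per 1000000) and Klk1 at 22392 against 694.7.

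Genes of the proximal tubule had UMIs in every group of the untreated library. Kap, an abundant proximal tubule transcript, stood at 7351 CPM in connecting tubule cells, 7382 in distal convoluted cells, 7507 in principal cells and 11937 in leukocyte-gene cells. All 12 proximal markers had UMIs in the connecting tubule cells, with a summed level of 8934 CPM against 13962 in leukocyte-gene cells. The summed markers of endothelium (68.25 CPM), fibroblasts and pericytes (63.46 CPM), macrophages (52.02 CPM) and neutrophils (0.2081 CPM) were low.

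Within the untreated library the 554 cells were set beside their anatomical neighbours. The 186 distal convoluted cells had Slc12a3 at 10 per 10000 or more and low Slc12a1, and the 131 principal cells had Aqp2, the vasopressin-regulated water channel, at 10 per 10000 or more with Calb1, Slc12a3 and Slc12a1 each below 5. Both groups met the same leukocyte limit. Each group's UMIs were added up and expressed as CPM. A gene was measured at 20 CPM in either group and 20 UMIs in both together, and it was called higher or lower when its ratio was 2-fold or more and the ratio's exact counting interval left out 1. Since the groups were defined by measured genes, and all cells came from 1 library, these calls describe the cells and are no test. The distal convoluted cells themselves held Calb1 at 4306 CPM, against 4167 in connecting tubule cells, and 95 of them carried it at 10 per 10000 or more.

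Against distal convoluted cells, connecting tubule cells were higher in the calcium entry channel, the second calbindin and the exchanger. They were also higher in the sodium channel genes Scnn1b and Scnn1g, though not Scnn1a, and in the water channel genes Aqp2, Aqp3 and Aqp4. They were lower in Pvalb, Egf and the magnesium channel gene Trpm6. Of 6123 measured genes 526 (8.59%) were called higher and 192 (3.14%) lower, with a median log2 ratio of 0.162 over all of them, and 303 were higher when the cells carrying Aqp2, described further on, were left out. Of the 10 measured connecting tubule markers 8 were higher and none lower, with a median log2 ratio of 2.10. This was not particular to that list. Of 12 principal cell markers 11 were higher (median 3.55), and of 9 intercalated cell markers all 9 were (median 2.43), with none lower in either. The intercalated levels leaned on 43 cells with Atp6v1g3, described further on. In the other 511 cells Foxi1 stood at 5.194 CPM, Atp6v0d2 at 8.310, Aqp6 at 10.13, Slc26a4 at 11.95 and Slc4a1 at 12.72. Of the 9 measured distal convoluted markers 7 were lower and none higher. Against principal cells, 152 of 6467 measured genes (2.35%) were higher and 451 (6.97%) lower, with a median of -0.08, and 982 were lower without the Aqp2 carriers. There 5 of 10 connecting tubule markers and 6 of 8 distal convoluted markers were higher and none lower, while 5 of 11 principal cell markers were lower and 1, Kcne1, was higher.

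The calcium genes are given in the order of the ion's path, and only some were called. Trpv5 stood at 103.0 CPM (94.13 to 112.5) in connecting tubule cells, 18.67 (12.41 to 26.99) in distal convoluted cells and 20.51 (13.14 to 30.51) in principal cells, ratios of 5.52 and 5.02. S100g stood at 19726, 4225 and 2351 CPM, ratios of 4.67 (4.55 to 4.79) and 8.39 (8.08 to 8.72). Slc8a1, the exit exchanger, stood at 455.3, 176.7 and 52.12 CPM, ratios of 2.58 (2.27 to 2.94) and 8.73 (6.77 to 11.5). The pump Atp2b4 was 11.2-fold higher than in principal cells, at 104.9 against 9.399 CPM, and not called against distal convoluted cells, at 77.37 CPM. The other pump, Atp2b1, was near level in all groups, at 127.8, 123.4 and 99.97 CPM. Trpv6, the close relative of Trpv5, had only 14 UMIs and was not measured.

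Distal convoluted cells with and without Calb1 differed as references. When the 95 with Calb1 at 10 per 10000 or more were left out, the ratios to the remaining 91 were 71.7 for S100g, 20.8 for Trpv5 and 7.47 for Slc8a1, and Kl (3.60) and Atp2b4 (2.55) passed the 2-fold limit. This setting was added after the data had been seen.

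Other genes of the calcium list separated less evenly. Stc1, a secreted regulator of calcium and phosphate, stood at 107.4 CPM against 2.001 in distal convoluted cells (3 UMIs there, ratio 53.7, interval 18.3 to 261) and 56.39 in principal cells. Fxyd2, a subunit of the sodium pump listed here because it sets the gradient for the exchanger, was 2.95-fold lower than in distal convoluted cells (3066 against 9037 CPM) and 2.66-fold higher than in principal cells (1151 CPM). Of the 15 calcium genes measured against distal convoluted cells 4 were higher and 1 lower. Against principal cells 6 of 17 were higher and 3 lower, the last being S100a10, Stim1 and Anxa2, a membrane adaptor, an endoplasmic calcium sensor and a membrane-binding annexin.

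Among hormone receptor genes of calcium handling, Kl, Vdr and Pth1r were not called against distal convoluted cells. Against the distal convoluted cells without Calb1, however, Kl was called higher (ratio 3.60). Kl, the co-receptor for a phosphate hormone and a stabiliser of TRPV5, stood at 1413 CPM, against 853.7 in distal convoluted and 235.8 in principal cells, where the ratio was 5.99. Vdr, the vitamin D receptor, stood at 296.9, 176.1 and 71.77 CPM, a ratio of 4.14 to principal cells. Pth1r, the parathyroid hormone receptor, was not called on either side (183.9, 248.8 and 104.2 CPM). Of 10 measured genes in the hormone list 1 was higher and none lower against distal convoluted cells (Rxra, a partner of the vitamin D receptor), and 2 were higher against principal cells.

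Of the 3 sodium channel genes, Scnn1b and Scnn1g were higher than in distal convoluted cells, Scnn1a was not called, and none was called against principal cells. Hsd11b2, the enzyme that protects the aldosterone receptor from glucocorticoids, stood at 2268 CPM, against 49.35 in distal convoluted cells (46.0-fold, 36.6 to 58.6) and 2152 in principal cells. Scnn1g was 23.1-fold higher than in distal convoluted cells (231.2 against 10.00 CPM) and Scnn1b 10.8-fold (390.2 against 36.02 CPM), with 142.7 and 300.8 CPM in principal cells. Scnn1a, the pore subunit, was near level at 223.7, 157.4 and 203.4 CPM. The receptor gene Nr3c2 (79.07 against 30.01 CPM), the kinase Sgk1 (175.8 against 22.01 CPM) and the ubiquitin ligase Nedd4l (80.94 against 24.01 CPM) were higher than in distal convoluted cells as well, although Nr3c2 lost its call (ratio 1.85) against the distal convoluted cells without Calb1. In all 7 of 14 measured genes of the list were higher and 2 lower against distal convoluted cells, and 2 of 15 were higher and 2 lower against principal cells. Summed Klk1 was highest here, at 22392 CPM against 7934 and 3729, with ratio intervals of 2.77 to 2.88 and 5.83 to 6.19. The level was uneven over the cells. In the 104 cells of the highest Aqp2 group, described further on, Klk1 stood at 2217 CPM, below both neighbours. The 94 cells of the lowest group stood at 40391 CPM, and the groups between lay above both neighbours. Thinned to 2000 UMIs, a Klk1 UMI was found in 87.4% of connecting tubule, 94.1% of distal convoluted and 52.7% of principal cells. Reads of the kallikrein family, whose members are near copies of each other, may be shared, so Klk1 and the 11.2-fold higher Klk1b5 are uncertain as single genes.

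These sodium ratios moved with the cells that carry Aqp2, described further on. In the 179 connecting tubule cells below the Aqp2 limit the ratio to distal convoluted cells was 21.3 for Hsd11b2, 9.86 for Scnn1g, 6.27 for Scnn1b and 2.42 for Sgk1, each still called. Against principal cells the same 179 cells were lower in Hsd11b2 (0.489) and Sgk1 (0.451), which had not been called in the full set.

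Some genes of the thiazide-sensitive pathway lay between the neighbours. Wnk1, a kinase whose short form is made in the distal convoluted tubule, stood at 1595 CPM against 3789 in distal convoluted cells (2.38-fold lower) and 240.1 in principal cells (6.64-fold higher). Wnk4 stood at 188.7, 296.8 and 59.81 CPM and was called only against principal cells. Of the WNK list 6 of 14 genes were lower and none higher than in distal convoluted cells, and 6 of 12 were higher and none lower than in principal cells. Without the Aqp2 carriers Wnk1 (1.47-fold lower) and Fxyd2 (1.31-fold lower) no longer passed the limit against distal convoluted cells. The 3' counting used here does not separate the short and long forms of Wnk1.

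Genes that mark the distal convoluted tubule included the largest differences downward, while the magnesium transporter gene Slc41a1 was higher (35.79 against 10.00 CPM). Pvalb, a calcium buffer of the early distal convoluted tubule, was 42.1-fold lower (48.27 against 2032 CPM), Egf 36.9-fold lower (46.40 against 1712 CPM) and the magnesium channel Trpm6 6.35-fold lower (23.31 against 148.1 CPM). Umod, the uromodulin gene, was 9.63-fold lower at 260.5 against 2510 CPM. The potassium channel Kcnj1 (507.5, 570.9 and 476.8 CPM) and the basolateral Kcnj10 (223.7, 171.4 and 114.5 CPM) were not called on either side. Kcne1, a regulatory subunit of potassium channels, stood at 355.6 CPM against 1 UMI in distal convoluted cells (ratio 533, interval 95.6 to 21072) and 129.0 CPM in principal cells, where it was 2.76-fold higher. Of 11 potassium and magnesium genes 2 were higher and 5 lower against distal convoluted cells, and 2 were higher and none lower against principal cells.

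Aqp2, Aqp3, Aqp4, Avpr2 and Fxyd4 stood at levels between the neighbours. Aqp2 stood at 2127 CPM against 159.4 in distal convoluted and 7281 in principal cells, although in the principal cells it was part of their definition. Fxyd4, a sodium pump regulator of the collecting duct, stood at 991.9, 70.70 and 4795 CPM, 14.0-fold higher and 4.83-fold lower. Without the Aqp2 carriers its ratio to distal convoluted cells was 1.65 and the call was lost. The vasopressin receptor Avpr2 stood at 188.9, 6.670 and 366.6 CPM, 28.3-fold higher than in distal convoluted cells. Aqp4, the basolateral water channel, was the gene of this list that set the connecting tubule furthest from principal cells, at 25.39 against 675.0 CPM, 26.6-fold lower. In the water list 5 of 9 genes were higher than in distal convoluted cells and none lower, and 3 of 8 were lower than in principal cells and none higher.

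Acid-base genes were higher in 13 of 14 measured members against distal convoluted cells and lower in none. Rhbg, an ammonia channel, was 51.7-fold higher (517.3 against 10.00 CPM), Rhcg 3.84-fold (516.9 against 134.7 CPM) and Car2, a carbonic anhydrase, 7.44-fold (500.9 against 67.36 CPM). Cells that carried the intercalated cell gene Atp6v1g3 moved this count: without 43 such cells 4 of 8 measured genes were higher and none lower. Against principal cells 2 of 14 were lower in the full set and 9 of 14 without those 43 cells, and none was higher in either.

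Of the transcription factors of the distal nephron 9 of 24 were higher and 3 lower against distal convoluted cells. Tfcp2l1, a regulator of collecting duct cell types, stood at 1058 against 341.5 CPM and Gata3 at 174.8 against 86.70. Sall3, a marker of the distal convoluted tubule, was 6.90-fold lower at 12.28 against 84.70 CPM. Against principal cells 3 of 23 were higher, among them Emx1 (148.4 against 31.61 CPM) and Hoxd10 (77.82 against 18.80), and 4 were lower, among them Elf5 (1.248 against 69.21). Emx1 and Hoxd10 were not called against distal convoluted cells (230.1 and 63.36 CPM), nearer to the connecting tubule level than those of principal cells.

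**Figure D2:**
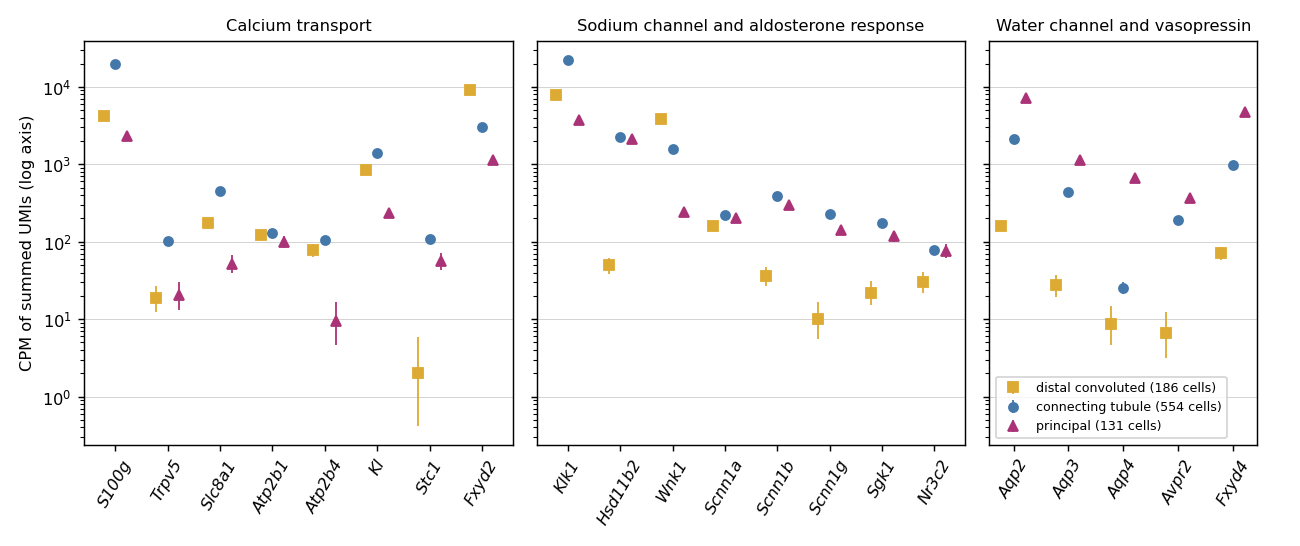
CPM of summed UMIs (log axis) with counting intervals for calcium, sodium and water genes in untreated connecting tubule (554), distal convoluted (186) and principal (131) cells. S100g, Trpv5 and Slc8a1 are highest in connecting tubule cells, Hsd11b2, Scnn1b and Scnn1g are within 2-fold of principal cells, and Aqp2 and Fxyd4 lie between the neighbours.

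Genes linked to tubular injury and to rapid transcription differed between the untreated groups. Of the injury list 7 of 15 were higher and 1 lower than in distal convoluted cells, and 1 of 17 was higher and 12 lower than in principal cells. Spp1, the osteopontin gene, was the higher one at 3586 against 1036 CPM. Lcn2 (3.954 against 156.4 CPM), Krt18 (162.5 against 365.7 CPM) and Krt8 (134.6 against 288.8 CPM), the genes of a secreted iron carrier and 2 keratins, were among the lower ones. Immediate-early genes, which respond within minutes to stimuli that include tissue dissociation, were higher in 11 of 15 and lower in none against distal convoluted cells, and lower in 12 of 16 and higher in none against principal cells. Fos stood at 947.2 CPM, against 86.04 and 2082. In the connecting tubule cells below the Aqp2 limit 2 of 13 were higher and 3 lower than in distal convoluted cells. Nuclear oxidative phosphorylation genes showed none of 25 called on either side, with median log2 ratios of -0.41 against distal convoluted and 0.42 against principal cells.

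By size of difference the genes most above distal convoluted cells, beside those named, were Spink8 (50.7-fold), Cav1 (91.4-fold, from 4 UMIs in distal convoluted cells, interval 35.6 to 336), Atp6v1g3 (19.9-fold) and Tmsb4x (14.3-fold), the last the gene of an actin-binding peptide. Most below them were Uroc1 (105-fold), an enzyme of histidine breakdown, Abca13 (20.7-fold), Sfrp1 (18.2-fold), a secreted Wnt antagonist, Ppp1r1a (13.6-fold), Cwh43 (11.5-fold), Wfdc15b (9.59-fold) and the creatine kinase Ckb (9.31-fold). Above principal cells were Kng2 (4.59-fold), a kininogen and thus a substrate of kallikrein, and Slc2a9 (7.14-fold), a urate transporter. Below them were Npy (54.0-fold), Id1 (25.5-fold), Nupr1 (26.9-fold), Muc20 (24.0-fold), Timp2 (18.8-fold), Ranbp3l (13.5-fold), Btc (9.52-fold) and Aqp6 (9.19-fold). Without the Atp6v1g3 carriers the Atp6v1g3 ratio to distal convoluted cells was 1.52 and not called.

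The 554 untreated cells were not uniform. Aqp2 was at 5 per 10000 or more in 375 of them (67.7%, 63.6 to 71.6) and below it in 179. The 375 carriers had a median of 7982 UMIs and 14.1% mitochondrial UMIs, the 179 others 4707 UMIs and 19.8%, and the part of depth and mitochondrial content in what follows was not tested. Calb1 was 4187 CPM in carriers and 4114 in the others, S100g 19269 and 20963, and Slc8a1 465.2 and 428.5. These genes were nearly level across the split. Of 15 measured genes of the calcium list 1 was higher in carriers (Stc1, ratio 4.65) and 1 lower (Fxyd2, ratio 0.240). The other 13 were not called, among them Trpv5 with a ratio of 1.86. Of 6161 measured genes 320 (5.19%) were higher in carriers and 98 (1.59%) lower. The balance depends on scaling: higher genes were 76.6% of those called as given, 54.9% (179 higher, 147 lower) when the median gene was set level, and 66.2% (286 and 146) with mitochondrial genes out of the totals. The median log2 ratio of all genes was 0.183, a shift against which the genes below can be read.

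Carriers were higher in collecting duct genes and the others in kallikrein. Fxyd4 was 11.3-fold higher in carriers (1316 against 116.4 CPM), Aqp3 5.33-fold (567.0 against 106.3 CPM), Avpr2 4.96-fold (240.9 against 48.55 CPM) and Hsd11b2 2.58-fold (2718 against 1053 CPM). Apela, a peptide hormone gene of the collecting duct, was 4.80-fold higher. Of the 11 measured principal cell markers 7 were higher and none lower. Klk1 was 2.87-fold lower in carriers, at 14867 against 42734 CPM, Fxyd2 4.16-fold lower at 1655 against 6882 CPM, Wnk1 2.09-fold lower at 1233 against 2574 CPM, and Pvalb 18.2-fold lower at 8.551 against 155.7 CPM. Wnk1 lost its call when cells carried equal weight (ratio 0.521) and when S100g was required (0.508).

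Grouped by their Aqp2 level, the cells showed how far each gene followed it. From the 94 cells below 1 per 10000, through 85 cells at 1 to 5, 166 at 5 to 20 and 105 at 20 to 40, to 104 cells at 40 or more, Klk1 stood at 40391, 44436, 23312, 12596 and 2217 CPM. Fxyd4 stood at 31.14, 178.3, 724.6, 1413 and 2279 CPM over the same groups, and Fxyd2 at 7827, 6195, 2415, 1247 and 772.6. Hsd11b2 stood at 426.8, 1507, 2376, 3003 and 2987 CPM. S100g, by contrast, stood at 17213, 23686, 20381, 20238 and 16014 CPM and Calb1 at 4272, 4000, 4132, 4571 and 3806, with no steady order. Median depth was 3524, 7806, 7296, 8652 and 8004 UMIs and median mitochondrial content 20.6, 18.5, 18.2, 12.8 and 10.3%, so the lowest group was also the shallowest.

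**Figure D3:**
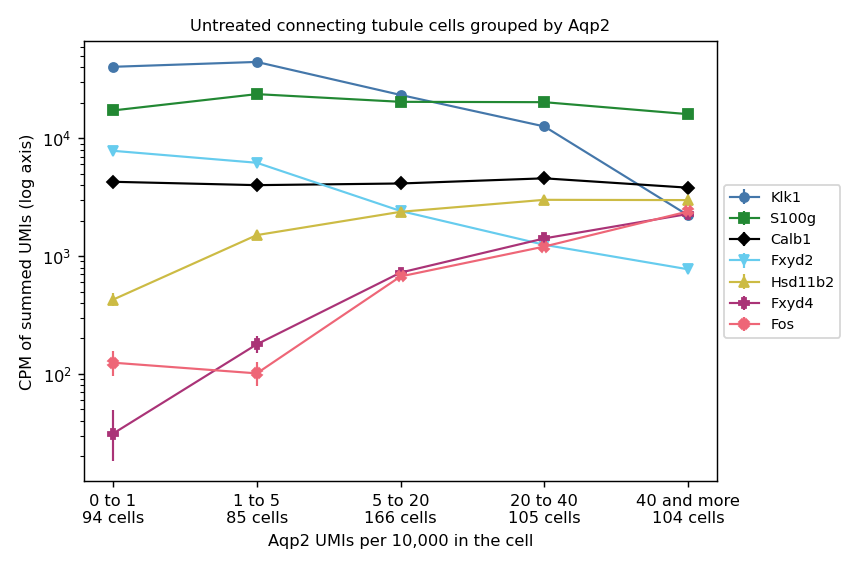
CPM of summed UMIs (log axis) with counting intervals in untreated connecting tubule cells grouped by Aqp2 per 10000 UMIs. Klk1 goes from 40391 to 2217 and Fxyd4 from 31.14 to 2279 across the 5 groups, while S100g and Calb1 stay near level.

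Over the 554 cells, which share a library and differ in depth, the log levels of Aqp2 correlated with those of Fxyd4 (Pearson's r 0.76, Spearman's rho 0.77) and Hsd11b2 (0.70 and 0.64) and inversely with Fxyd2 (-0.66 and -0.64) and Klk1 (-0.48 and -0.52). S100g correlated most with Spp1 (0.59 and 0.55) and hardly with Aqp2 (-0.02 and -0.01). Kl went with Slc8a1 (0.55 and 0.54). These values describe the cells of 1 library and carry no p-value.

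Immediate-early genes also followed the split, with 13 of 15 higher in carriers and none lower. Fos was 11.3-fold higher (1256 against 111.0 CPM), Fosb 9.25-fold and Junb 6.14-fold, and over the Aqp2 groups Fos stood at 124.6, 101.1, 671.9, 1205 and 2393 CPM. Gdf15, a stress-responsive secreted factor, was 12.2-fold higher, from 10 UMIs in the other cells. Genes of other cell types moved as well: all 5 measured endothelial markers and both measured macrophage markers were lower in carriers, among them Emcn (4.846 against 40.07 CPM) and Cd74 (5.131 against 32.37 CPM). Their part in the differences was not tested. When the comparison was kept to cells with 5 to 15% mitochondrial UMIs, a setting added after the data had been seen, 13 of 16 immediate-early genes were higher and 1 lower.

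A smaller set of 43 untreated cells (7.76%, 5.67 to 10.3) held the proton pump subunit Atp6v1g3 at 5 per 10000 or more. In them Atp6v1g3 stood at 2629 CPM against 42.59 in the other 511, Slc26a4, the chloride-bicarbonate exchanger of intercalated cells, at 293.2 against 11.95, and Foxi1, the regulator of intercalated cells, at 235.6 against 5.194. Calb1 was 2996 against 4458 CPM and S100g 16098 against 20626. Their median depth was 18211 UMIs against 6969, and 20 of the 43 lay above the doublet threshold, against 40 of all 554. Whether these barcodes hold more than 1 cell was not tested further.

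After injury the cells that met the rule were too few to compare, and their values are set side by side. S100g had a median of 158 per 10000 in the 554 untreated cells (lowest 0, highest 713), 90.5 in the 47 day 2 cells (lowest 0, highest 574) and 0.395 in the 34 day 30 cells (lowest 0, highest 659). No S100g UMI was found in 17 untreated cells, 1 day 2 cell and 17 day 30 cells. The day 30 cells with and without a UMI had median depths of 11524 and 10311 UMIs. A single UMI is a weak sign of the marker: 13.9% of day 30 leukocyte-gene cells held one unthinned. At 5 per 10000 or more stood 13 of the 34 day 30 cells. The 17 day 30 cells without an S100g UMI had medians of 32.9 per 10000 for Calb1, 24.6 for Aqp2, 33.3 for Hsd11b2, 11.5 for Kl and 0 for Klk1. The 17 with it had 24.8, 8.43, 21.5, 13.1 and 0. For these S100g-negative cells the label rests on Calb1 and the shared distal genes. Summed, S100g stood at 19726, 14647 and 3829 CPM in the 3 libraries, with 392.6, 88.96 and 26.43 in their leukocyte-gene cells.

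Klk1 had medians of 57.8, 4.96 and 0 per 10000 in the untreated, day 2 and day 30 cells, with highest values of 1964, 274 and 228. Its summed levels were 22392, 4512 and 1248 CPM. The ranges of the 3 libraries overlap from 0 upward, and 12 of the 34 day 30 cells held a Klk1 UMI. Trpv5 stood at 103.0 (94.13 to 112.5), 263.4 (224.5 to 307.1) and 153.6 (117.7 to 196.9) CPM and had a UMI in 244 of 554, 43 of 47 and 22 of 34 cells. Thinned to 2000 UMIs the Trpv5 shares were 16.6%, 44.7% and 23.5%. Slc8a1 stood at 455.3, 155.1 and 242.7 CPM and Vdr at 296.9, 98.58 and 218.0. Among these 3 sets, leaving aside the day 7 cell, Trpv5 was listed highest at day 2 and S100g, Slc8a1 and Vdr in the untreated cells. Thinned in the same way, principal cells held a Trpv5 UMI in 4.58%, 20.9% and 9.38%, and distal convoluted cells in 2.15%, 1.63% and 2.63%. In principal cells S100g stood at 2351, 1379 and 31.79 CPM and Klk1 at 3729, 827.4 and 14.13. For Klk1 the thinned shares were 71.4%, 14.3% and 4.58% in leukocyte-gene cells and 94.1%, 58.7% and 89.5% in distal convoluted cells. Whether these patterns are particular to connecting tubule cells was not tested.

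Some other genes stood closer together in the untreated, day 2 and day 30 cells, and some did not. Kl stood at 1413, 1139 and 1541 CPM, Hsd11b2 at 2268, 3084 and 2598, Scnn1b at 390.2, 313.5 and 314.6, Scnn1g at 231.2, 223.0 and 213.0, and Aqp2 at 2127, 1463 and 1887 CPM. Fxyd4 stood at 991.9, 2366 and 1285 CPM. Fxyd2 stood at 3066, 737.0 and 123.8 CPM, against 1219, 269.6 and 151.3 in the leukocyte-gene cells, so the day 30 level was no higher than the free RNA measure. Wnk1 stood at 1595, 236.0 and 941.2 CPM. Aqp2 was at 5 per 10000 or more in 375 of 554, 39 of 47 and 29 of 34 cells. Thinned to 2000 UMIs, an Aqp2 UMI was found in 73.5% (69.6 to 77.1), 78.7% (64.3 to 89.3) and 85.3% (lower limit 68.9). The day 2 and day 30 intervals both overlap that of the untreated cells.

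Several injury-linked genes were listed higher at day 2 than in the untreated and day 30 cells. Krt8 stood at 134.6, 1067 and 284.8 CPM, Krt18 at 162.5, 777.4 and 346.8, Cd24a at 254.3, 1450 and 522.6 and the metallothionein Mt1 at 822.8, 2232 and 1337. Lcn2 stood at 3.954, 344.2 and 52.01 CPM, with 28.41, 187.1 and 71.34 in leukocyte-gene cells. Spp1 stood at 3586, 5925 and 2601 CPM, with 1888, 3133 and 3679 in leukocyte-gene cells. At day 30 both Lcn2 and Spp1 thus stood below the leukocyte-gene cells in summed level. The day 30 shares of cells after thinning went the other way. A Lcn2 UMI was found in 20.6% (8.70 to 37.9) of connecting tubule cells and 6.68% (5.76 to 7.70) of leukocyte-gene cells. For Spp1 the shares were 94.1% and 85.9%. Whether leukocyte-gene cells make these transcripts themselves was not tested, so their level is no sure measure of free RNA for Lcn2 and Spp1. Havcr1, the proximal tubule injury marker, had 2 UMIs in the untreated cells, 0 at day 2 (0 of 47 cells, interval up to 7.55%) and 2 at day 30. Marker sums of other cells differed too: neutrophil markers summed to 0.2081, 1456 and 19.81 CPM and macrophage markers to 52.02, 373.3 and 2046 CPM, against 31132 for neutrophil markers in the leukocyte-gene cells of day 2 and 33313, 15104 and 43757 for macrophage markers. Their part in these values was not tested.

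**Figure D4:**
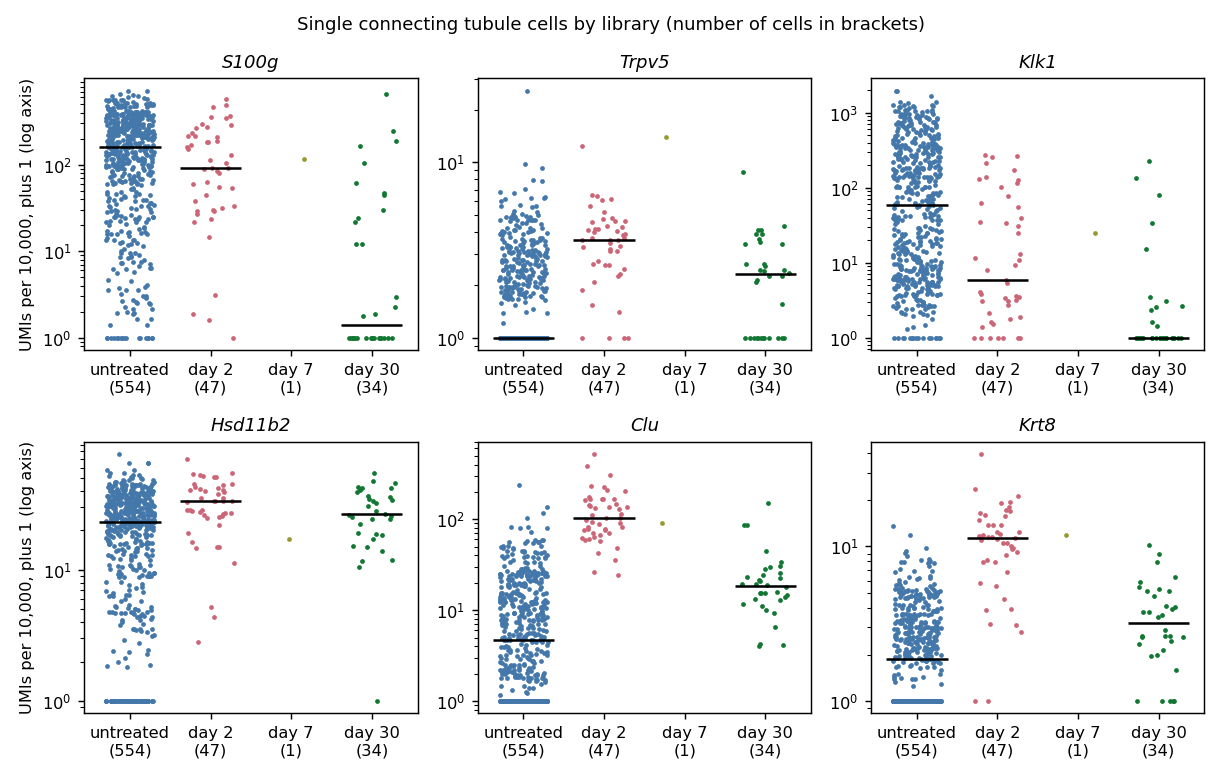
UMIs per 10000, plus 1 (log axis), in each connecting tubule cell by library, with the number of cells in brackets and a line at the median. S100g medians are 158, 90.5 and 0.395 in the untreated, day 2 and day 30 cells, and Clu medians 3.70, 101 and 17.5.

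The day 7 cell, with 19221 UMIs, held 26 Calb1, 222 S100g, 25 Trpv5, 46 Klk1, 31 Hsd11b2, 172 Clu and 185 Spp1 UMIs and no Aqp2 UMI. Per 10000 UMIs that is 13.0 for Trpv5 and 96.2 for Spp1, with Lcn2 at 9.36 and Krt8 at 10.9. It carried all 3 label markers, and no range can be given from it.

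Clu, the gene behind the reporter, had a median of 3.70 per 10000 in the untreated cells (lowest 0, highest 237), 101 at day 2 (lowest 23.1, highest 519) and 17.5 at day 30 (lowest 3.03, highest 149). Every day 2 and day 30 cell held a Clu UMI, against 384 of 554 untreated cells. Thinned to 2000 UMIs the shares were 50.9% untreated, 100% at day 2 and 94.1% at day 30, against 13.0%, 30.6% and 18.5% in leukocyte-gene cells. Summed, Clu stood at 1050 CPM (1021 to 1079), 13323 (13037 to 13614) and 2271 (2127 to 2423), and at 8949 (7661 to 10390) in the day 7 cell. Because the sort took GFP-positive cells of a Clu reporter, the level of Clu in sorted cells depends on the gate.

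The neighbours in the same libraries gave a scale for these values. In the untreated library Clu stood at 856.4 CPM in distal convoluted cells and 481.9 in principal cells, and connecting tubule cells were 2.18-fold (2.00 to 2.38) above the latter and 1.23-fold (1.15 to 1.30) above the former, which was not called. The call against principal cells was lost in the cells below the Aqp2 limit (just under 2.00), with cells weighted equally (1.70) and at 5 to 15% mitochondrial UMIs (1.56). Against the distal convoluted cells without Calb1 the ratio was 5.14. At day 2 Clu stood at 6397 CPM in 184 distal convoluted cells and 15296 in 148 principal cells, with the 47 connecting tubule cells at 13323. At day 30 it stood at 669.4 in 38 distal convoluted cells, 1621 in 32 principal cells and 2271 in the 34 connecting tubule cells. Over all cells of a library Clu stood at 233.9, 2487, 1369 and 664.9 CPM in the untreated, day 2, day 7 and day 30 libraries.

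**Figure D5:**
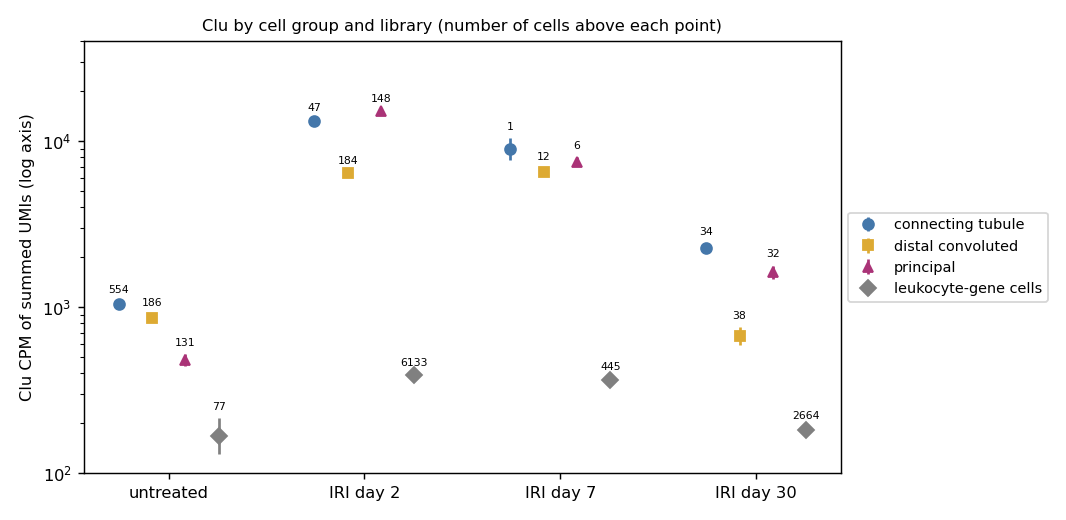
Clu CPM of summed UMIs (log axis) with counting intervals in connecting tubule, distal convoluted, principal and leukocyte-gene cells of each library, with the number of cells above each point. Connecting tubule cells stand at 1050 untreated and 13323 at day 2, above the leukocyte-gene cells (167.9 and 390.9).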

How the data were processed

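The submitters' processing notes name Cell Ranger 7.0.1 and mm10. The deposited files hold raw UMI counts per gene and barcode, per the file headers and whole-number values, for 27998 gene rows; the deposited barcode and feature lists give names only. No other step is stated in the labels.

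From these counts 4 libraries were read with Python 3.11.15, numpy 2.4.6, scipy 1.17.1, pandas 2.3.3 and scanpy 1.11.5. Cells were chosen by the limits given above. Group sums of UMIs were expressed as CPM with exact Poisson intervals, and ratios with exact conditional intervals. Log2 ratios used CPM plus 10, and a group at 0 was set to a floor of 3 counts. Shares carry exact Clopper-Pearson intervals. All intervals are at 95% and cover counting error only. The calling script was tested on simulated counts.

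Genes named one by one are the label markers, Clu, the calcium and sodium lists, the 10 called genes with the largest difference in each direction (50 UMIs or more in the higher group; ribosomal, mitochondrial and unnamed genes left out) and up to 4 members of other lists; further genes of these lists were named after their values were seen. Of 534 listed genes, 3 symbols were not found among the gene names. The cell limits, members and lists were chosen with earlier results of these data known. Contrasts between libraries were planned but not run, because only 1 library reached 50 cells. Alternatives covered the Calb1 limit, S100g, Aqp2 and Atp6v1g3 carriers, doublets, mitochondrial content, depth, scaling, free RNA, cell weights and the minimum level.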

Additional observations from a re-analysis of the deposited data

How the results depend on the processing

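No paired analysis was possible because each group is 1 library and the labels give no replicate numbers, and no library could be left out. Contrasts between libraries, and their alternatives, were not run because 3 libraries held fewer than 50 cells. Where values moved by more than 1.5 times below, the cause was not tested unless the setting itself changes which genes or cells enter.

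Against distal convoluted cells the 526 higher genes were 303 with Aqp2 carriers left out and 939 with no minimum level. The 192 lower genes were 322 at no more than 20% mitochondrial UMIs, 347 with no minimum level, 371 at 5 to 15% mitochondrial UMIs and 343 with Calb1-positive distal convoluted cells left out. Against principal cells the 152 higher genes were 271 with no minimum level, and the 451 lower genes were 982 with Aqp2 carriers left out and 716 with no minimum level. Between Aqp2 carriers and other cells the 320 higher genes were 179 with median scaling, 522 with cells weighted equally, 598 with no minimum level, 496 without Atp6v1g3 carriers and 484 at 5 to 15% mitochondrial UMIs. The 98 lower genes were 57 at Calb1 of 20 or more, 170 at no more than 20% mitochondrial UMIs, 157 with free RNA subtracted, 175 with equal weights, 185 with no minimum level and 233 at 5 to 15% mitochondrial UMIs.

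The untreated share of 8.463% was 10.4% at Calb1 of 5 or more, 5.74% at 20 or more, 11.2% among cells with at least 5976 UMIs and 5.32% with at least 18362. At day 2 it was 1.66% and 0.0779% at the Calb1 limits of 5 and 20, at day 7 0.570% and 0%, and at day 30 0.720% at the limit of 5 and 0.327% above 18362 UMIs. Of the named-gene ratios, 1824 stayed on their side of the calling limit, although 41 uncalled ones among them crossed 1. A further 28 newly passed the limit, 16 no longer did, and 3 crossed 1 and gained or lost a call. With Aqp2 carriers left out, Aqp2 against distal convoluted cells was 0.996, as that setting removes Aqp2 by construction, and against principal cells Hsd11b2 was 0.489 (from 1.05) and Sgk1 0.451 (from 1.49). Under that setting Scnn1b (1.30 to 0.751), Scnn1g (1.62 to 0.691) and Stc1 (1.90 to 0.519) also turned against principal cells without being called either way.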

Other observations

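Cd8a, a gene of cytotoxic T cells, was listed among the genes above distal convoluted cells and was chosen for description after its values were seen. It had 120 UMIs in 59 of the 554 untreated connecting tubule cells (24.97 CPM), none in the 186 distal convoluted cells, at least 12.5-fold higher when that group is set to a floor of 3 counts over the group, and 7.690 CPM in principal cells. Of the 59 cells none held a UMI of its partner Cd8b1 or of Cd3d, 1 held Cd3e and 8 held Ptprc, the T cell receptor and pan-leukocyte genes. At day 2 Cd8a had 23 UMIs in 7 of 47 cells, of which 4 held Ptprc and 1 Cd3d, and at day 30 it had 4 UMIs in 2 of 34 cells, both with Ptprc.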
